A study of Mus musculus with 7 samples.

Results

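The Myc locus was followed through 4 lists of accessible chromatin regions from mouse pancreatic epithelium. The members are the ATAC-seq peaks whose summit, the base of highest signal, lies within 1 Mb on either side of the Myc gene span, at chromosome 15, 61985341 to 61990361 on GRCm38. The 4 lists held 580456 peaks on the 19 autosomes and X, and 476 of them were members: 99 were untreated, and 144, 110 and 123 came from days 1, 7 and 28. Peaks that overlapped between lists were joined into 207 merged regions, of 223972 in the genome. A merged region is named here by the distance of its strongest summit from the gene span, negative on the side of lower coordinates and positive on the side of the noncoding gene Pvt1.

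All cells came from C57BL/6J wild-type mice and carried no engineered allele. The untreated group had no injury. The other 3 groups were harvested 1, 7 and 28 days after caerulein, a cholecystokinin analogue that overstimulates acinar cells and provokes a transient acute pancreatitis. Pancreata were digested to single cells and the epithelial cells purified from them without culture. The marker used for that step, the caerulein dose and the number of animals per library are not stated in the sources used here. ATAC-seq applies the Tn5 transposase to nuclei, which cuts accessible DNA and tags it with sequencing adapters. Each group is 1 library, so no test between groups was possible and every value below compares libraries. Of the 7 samples of the series, the 3 from DCLK1-positive cells of Dclk1-DTR-ZsGreen mice were not analysed here.

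Myc encodes a basic helix-loop-helix leucine zipper transcription factor that pairs with MAX, binds E-box sequences and promotes cell growth, ribosome production and cell cycle entry. The gene sits in a stretch of chromosome with almost no other protein-coding genes. Enhancers scattered over this stretch, many of them on the Pvt1 side, act on Myc in a tissue-specific manner. In the pancreas Myc is needed for the growth of the acinar compartment, and it is active in acinar-to-ductal metaplasia and in pancreatic cancer.

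The libraries differed in depth and enrichment. The background pileup, meaning the number of reads expected at any base and a measure of depth, was 5.07 without treatment and 5.35, 2.72 and 2.52 on days 1, 7 and 28. Fold enrichment is the authors' own value, the reads stacked at a summit over that background, and is used here to order regions within 1 list. The median of fold minus 1 in regions held by all lists was 7.40, 16.6, 15.1 and 11.5, so the untreated library was the least enriched. Brackets after a fold give its exact Poisson 95% interval from the recovered read pileup, which covers counting error only.

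Markers of cell types also differed between the lists. Acinar marker genes had a peak within 1 kb of a gene end at 10 of 10 genes in the untreated list, 6 of 10 at day 1, 8 of 10 at day 7 and 10 of 10 at day 28, with 31, 11, 23 and 21 such peaks. The genes without one at day 1 were Cpa1, Cel, Pnlip and Amy2b. The epithelial markers had such a peak at 5, 4, 5 and 4 of 5 genes. Epcam had none at days 1 and 28, and the strongest peaks at the ends of Krt8 had folds of 85.2, 10.7, 44.9 and 106. Fibroblast and stellate markers had one at 5, 6, 6 and 6 of 6 genes, with 12, 14, 11 and 13 peaks, and their folds took no common order over the lists. The strongest peaks at the ends of Pdgfrb had folds of 12.4, 65.2, 42.2 and 30.4, those of Col1a1 17.3, 5.36, 51.3 and 30.9, and those of Pdgfra 12.4, 11.5, 14.5 and 17.9. Ductal markers had 8, 7, 9 and 11 peaks, endothelial markers 8, 8, 5 and 7, leukocyte markers 0, 3, 1 and 0, and endocrine markers 3, 4, 3 and 3. Ptprc, which marks all leukocytes, and the hormone genes Ins2, Gcg and Sst had none in any list. The part of cell composition in the differences at the Myc locus was not tested. In such bulk libraries fewer cells of a type and less accessible chromatin per cell cannot be told apart.

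**Figure D1:**
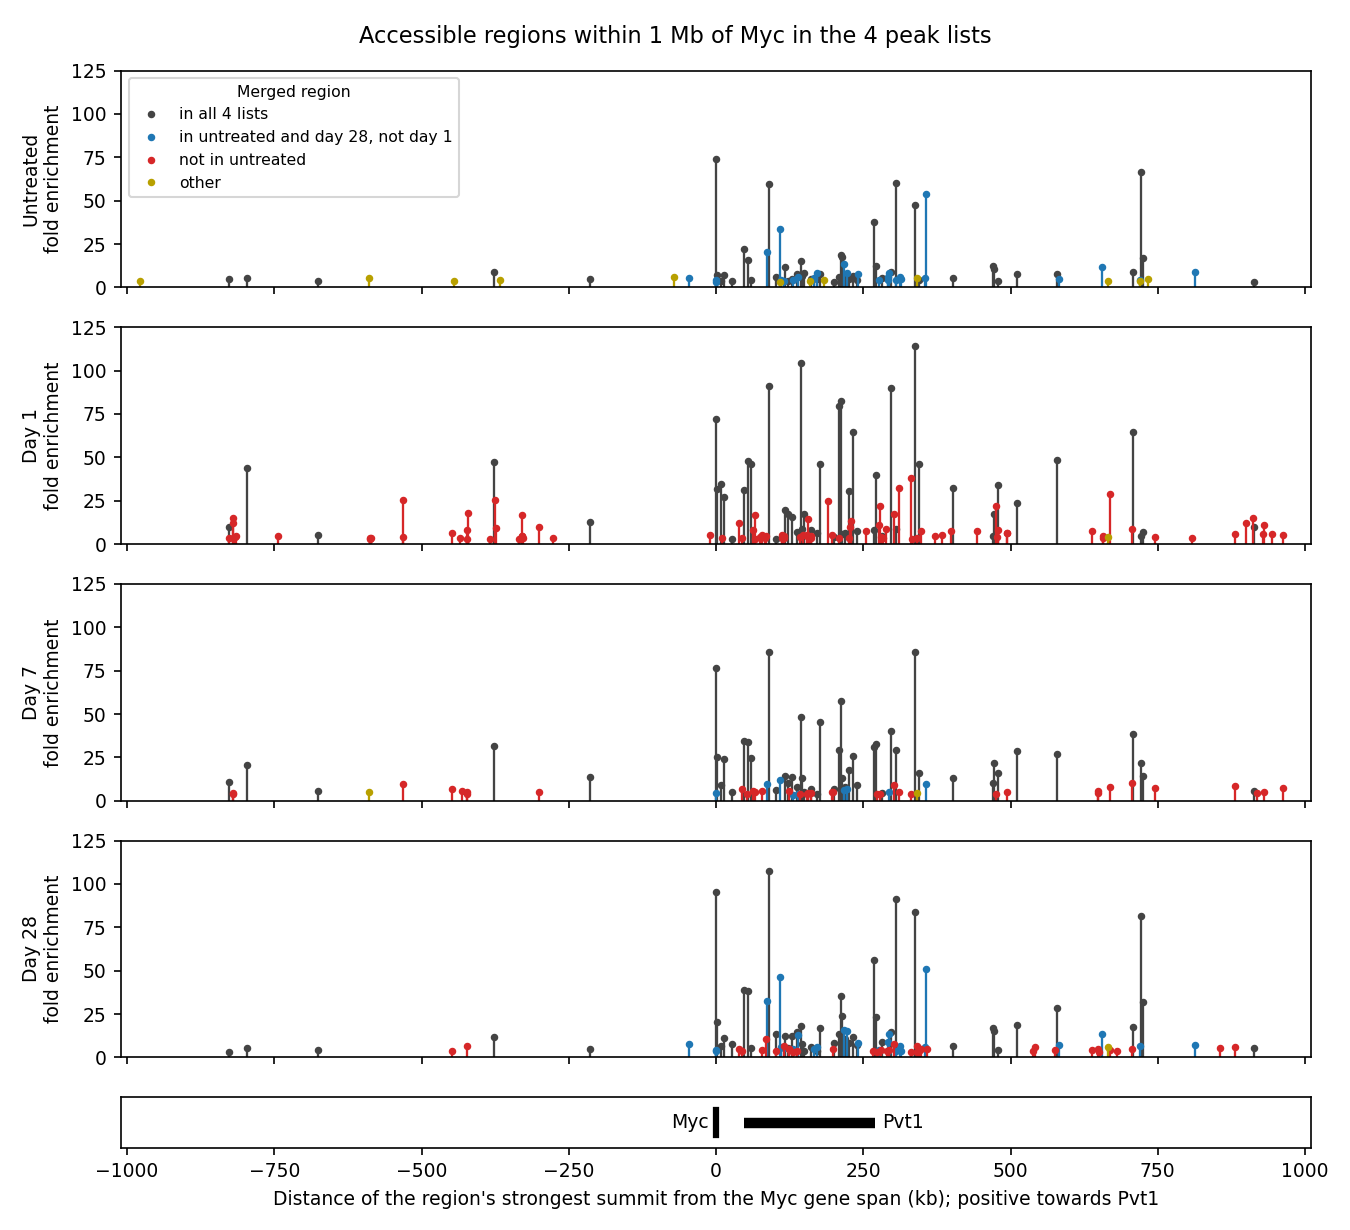
Fold enrichment (authors' values, vertical axis, linear from 0) of every merged region within 1 Mb of Myc in each of the 4 lists, by distance from the gene span in kb. Each stem is the strongest peak of a merged region in that list, coloured by the lists that held the region. The blue regions have no stem at day 1, and the regions of the lower side hold 36 of the 144 day 1 peaks.

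The region over the start of Myc was accessible in all lists and was among the strongest of the locus throughout. The merged region was 5382 bp long, at chr15:61983049-61988430, and covered the annotated start of the gene span. Its highest fold was 73.8 (67.1 to 81.0) without treatment, and 72.2 (65.7 to 79.1), 76.6 (67.9 to 86.0) and 95.4 (85.5 to 106) on days 1, 7 and 28. These values stood at percentiles 97.9, 96.2, 96.7 and 96.8 of their own lists. The position of the highest summit differed between lists. It lay 1919 and 1890 bp inside the gene in the untreated and day 28 lists, 220 bp inside it at day 7 and at -445 bp, before the span, at day 1. A separate summit at -1828, -1819 and -1826 bp was called in the untreated, day 1 and day 7 lists, with folds of 39.5, 49.9 and 57.5. In the day 28 list the whole stretch was 1 peak of 5209 bp. Toward the end of the gene, 2 weak regions were held by the untreated and day 28 lists, with folds between 3.13 and 4.45, and had no day 1 peak.

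Just beyond the end of the gene were 3 regions that all lists held. The region at 1.8 kb had folds of 7.25, 31.7, 25.3 and 20.4 in the untreated, day 1, day 7 and day 28 lists. Among the 50 merged regions of the window that all lists held it was 26th, 21st, 19th and 14th. The region at 8.7 kb had folds of 3.95 (2.57 to 5.85), 34.5 (30.1 to 39.4), 8.86 (6.15 to 12.4) and 6.81 (4.42 to 10.1). In the same order it was 44th, 18th, 38th and 37th. The region at 13.8 kb had folds of 7.41, 27.1, 23.9 and 11.4 and was 25th, 24th, 21st and 29th. Of these regions the one at 8.7 kb differed most in rank between the untreated and day 1 lists.

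The strongest regions of the window were on the Pvt1 side in every list, together with the region over the gene start. In untreated epithelium the highest folds belonged to the gene start (73.8) and to the regions at 722.2 kb (66.2), 305.1 kb (60.1), 89.1 kb (59.6) and 355.7 kb (53.7). At day 1 they belonged to the regions at 338.1 kb (114), 144.7 kb (105), 89.1 kb (91.1), 297.2 kb (89.8) and 212.5 kb (82.6). Only the region at 89.1 kb was in both groups of leaders. At day 7 the leaders were 338.1 kb (86.0), 89.1 kb (86.0), the gene start (76.6), 212.5 kb (57.8) and 144.7 kb (48.4). At day 28 they were 89.1 kb (107), the gene start (95.4), 305.1 kb (91.1), 338.1 kb (83.7) and 722.2 kb (81.5). The day 28 leaders were the untreated ones, except that the region at 338.1 kb stood in place of the one at 355.7 kb.

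The region at 89.1 kb lies inside Pvt1, at chr15:62078724-62080047. Pvt1 is transcribed into a long noncoding RNA, and its body is known to hold Myc enhancers. The region was 4th, 3rd, 1st and 1st of the 50 shared regions, and the region at 338.1 kb, beyond the end of Pvt1 at chr15:62327259-62329763, was 5th, 1st, 1st and 4th. The region at the annotated Pvt1 start, 47.6 kb from Myc, had folds of 21.9, 31.0, 34.4 and 38.9 and was 7th, 22nd, 9th and 7th. These regions were held by all lists and kept a place in the upper part of the order, with the exception of the Pvt1 start at day 1.

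Some of the strongest untreated regions stood in the lower part of the order at day 1. The region at 722.2 kb, at chr15:62712266-62713287, had folds of 66.2 (59.9 to 73.0), 4.41 (2.96 to 6.35), 21.5 (17.1 to 26.7) and 81.5 (72.3 to 91.4). Among the 50 shared regions its ranks were 2nd, 47th, 22nd and 5th. The region at 305.1 kb, at chr15:62294624-62295958, had folds of 60.1 (54.1 to 66.6), 8.82 (6.69 to 11.4), 29.3 (24.1 to 35.3) and 91.1 (81.4 to 102). Its ranks were 3rd, 35th, 15th and 3rd. The region at 267.8 kb, in the last part of Pvt1, had folds of 37.6, 8.35, 31.2 and 56.2 and ranks 6th, 36th, 13th and 6th. These 3 were high in the untreated and day 28 lists and intermediate at day 7.

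Another set stood in the opposite order. The region at 208.5 kb, inside Pvt1 at chr15:62198235-62199348, had folds of 5.77 (4.04 to 7.99), 79.7 (72.9 to 87.0), 29.5 (24.3 to 35.6) and 13.3 (9.84 to 17.7). Its ranks among the 50 were 30th, 6th, 14th and 24th. The region at 59.2 kb had folds of 4.12, 46.0, 24.4 and 5.39 and ranks 41st, 15th, 20th and 41st. The region at 344.1 kb had folds of 4.12, 46.3, 16.1 and 4.54 and ranks 41st, 13th, 26th and 45th. Each of these stood higher in the order at day 1 than in the other lists. At day 28 the region at 208.5 kb was near the middle of the 50, and those at 59.2 and 344.1 kb were near the bottom.

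To count such regions, the percentile of each among all 59902 merged regions held by the 4 lists was compared between lists. Of the 50 regions of the Myc window, 5 (10%) stood at least 50 percentile points lower at day 1 than in the untreated list, where the share over the genome was 5.59%. Another 5 (10%) stood at least 50 points higher, where the genome share was 4.39%. Both counts are small, no interval was computed for them, and neither share was tested against that of the genome. The shift nearest to the threshold among those inside it was -50.1 points, at 470.5 kb, and the nearest outside it was -47.0 points, at 724.1 kb. Against untreated, the day 7 list had 0 lower and 1 higher by that margin (genome shares 1.39% and 0.985%), and the day 28 list had 0 and 0 (0.0968% and 0.0134%). With a margin of 40 points, chosen after seeing the data, 6 regions stood lower at day 1, where the genome share was 8.66%, and 9 stood higher, where it was 8.65%. The margin of 50 points was also chosen after values were seen.

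All 10 regions with such a shift lay on the Pvt1 side, as did 44 of the 50 shared regions. In the untreated and day 28 lists each of the 5 lower ones had a higher fold than each of the 5 higher ones, in 25 of 25 pairs. At day 1 this was so in 0 of 25 pairs and at day 7 in 14 of 25. The order in the untreated and day 1 lists is fixed by how the 10 were chosen. The day 7 and day 28 lists entered the choice in that they had to hold each region, but their folds did not. No such count of pairs was made over the genome, so the counts at days 7 and 28 are a description.

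**Figure D2:**
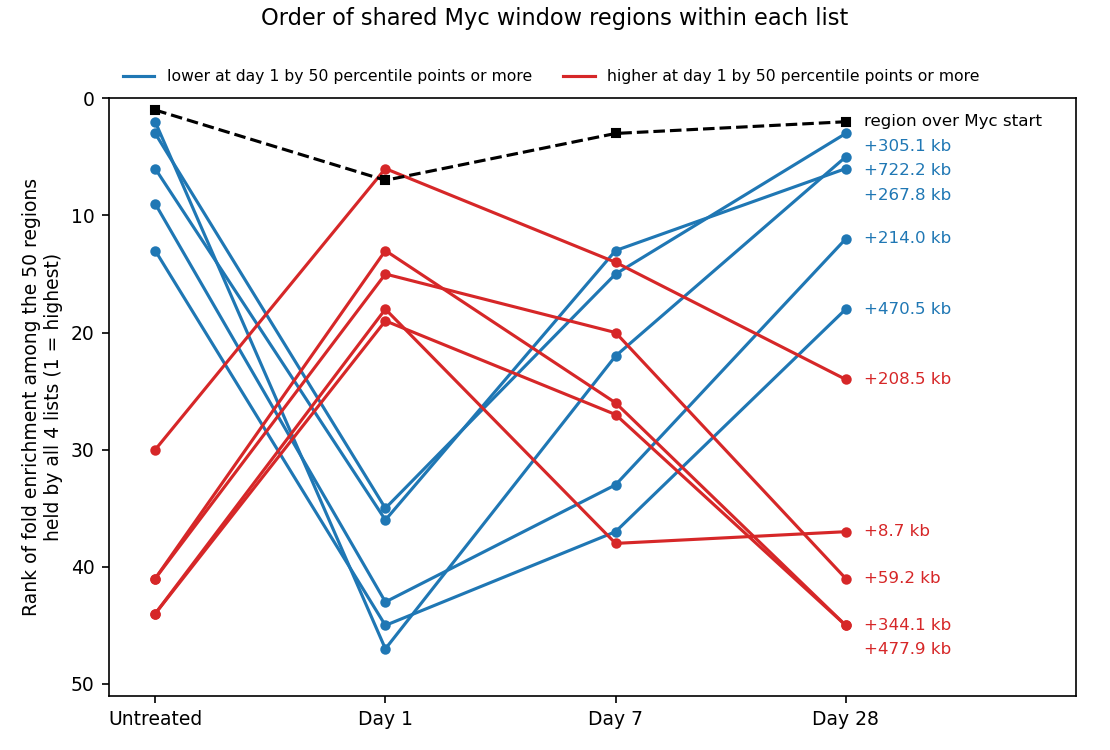
Rank of fold enrichment within each list (vertical axis, 1 = highest) among the 50 merged regions of the Myc window that all 4 lists held, for the 10 regions whose percentile differed by at least 50 points between day 1 and untreated and for the region over the Myc start. Blue lines go down and red lines up at day 1, and at day 28 all blue points again lie above all red ones.

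Some pairs of regions with opposite order lay close to each other, and 2 of the 5 pairs picked for that order are given here. The region at 305.1 kb and the one at 297.2 kb, at chr15:62286525-62287806, were 6.82 kb apart. The first had 6.64 times the fold of the second in the untreated list and 6.17 times at day 28. At day 1 the second had 10.2 times the fold of the first, and at day 7 1.37 times. The regions at 722.2 kb and 708.4 kb, 13.0 kb apart, gave the same order. The first had 7.58 times the fold of the second in the untreated list and 4.70 times at day 28, whereas the second had 14.7 times the fold of the first at day 1 and 1.80 times at day 7. Such ratios are taken within a list and do not depend on its depth. They do not show which region of a pair differed between lists. The pairs were chosen after values were seen.

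Across the 50 shared regions the order of the day 1 list was least like that of the untreated list and of the day 28 list. Spearman's rho was 0.31 between untreated and day 1, 0.68 between untreated and day 7 and 0.85 between untreated and day 28. It was 0.80 between day 1 and day 7, 0.27 between day 1 and day 28 and 0.69 between day 7 and day 28. Over all 59902 shared regions of the genome these values were 0.51, 0.74, 0.92, 0.83, 0.55 and 0.79. The points are regions of 1 locus in single libraries, and the values are a description.

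Regions that untreated and day 28 epithelium held and day 1 lacked numbered 27 of 207, or 13.0% (exact binomial 95% interval 8.77 to 18.4), where the share among all merged regions was 9.96%. Of these 27, 18 were absent at day 7 as well, or 8.70% of merged regions (5.24 to 13.4) where the genome share was 5.19%, and 9 were present then. Inside Pvt1 lay 11 of the 27. Most of the 27 were weak: their median untreated fold was 5.44, and 5 of them had one of at least 10. The strongest was the region at 355.7 kb, at chr15:62345580-62347001, with folds of 53.7 (48.0 to 59.9) in the untreated list, 9.67 (6.82 to 13.3) at day 7 and 51.1 (43.9 to 59.1) at day 28. The region at 108.6 kb, inside Pvt1 at chr15:62098343-62099590, had folds of 33.4, 12.1 and 46.5 in those lists, and the region at 86.4 kb, a neighbour of the strong region at 89.1 kb, had 20.4, 9.40 and 32.6. None of the 3 had a day 1 peak, although the lowest fold that any day 1 peak had was 2.36. On the lower side of Myc only 1 region, at -45.8 kb, was of this kind.

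Some acinar markers, like this group of regions, had no peak at day 1 and others kept one, with gene-end peaks at 10, 6, 8 and 10 of 10 genes. Folds given here are not adjusted for the enrichment of each library. The strongest gene-end peaks of Cela1 had folds of 13.2, 29.9, 25.8 and 26.7, and those of Ptf1a 46.0, 7.41, 18.5 and 79.2. Rbpjl had 4 such peaks untreated and 5 at day 1, with highest folds of 41.5, 14.3, 36.8 and 59.3 over the lists. Among the epithelial markers, the strongest gene-end peaks of Cdh1 had folds of 71.3, 9.93, 48.6 and 118, and those of Cldn4 21.1, 18.9, 58.3 and 52.5. The digestive enzyme genes Pnlip and Amy2b had no gene-end peak at days 1 and 7. The part of the acinar share of the cells in these regions was not tested.

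Regions that day 1 held and the untreated list lacked numbered 91 of 207. Of these, 58 were in the day 1 list alone, 28.0% of the merged regions (22.0 to 34.7) where the genome share was 23.0%. A further 18 were in the day 1 and day 7 lists, which makes 76 or 36.7% (30.1 to 43.7) with the 58, where the genome share was 32.3%. Another 9 were in the lists of days 1, 7 and 28 and 6 in those of days 1 and 28. Most were weak: the median day 1 fold of the 58 was 4.57, and 10 of them had a fold of at least 10. The strongest were the region at 330.8 kb, with folds of 38.1 (33.5 to 43.2), 3.76 and 3.41 on days 1, 7 and 28, and the region at 310.9 kb, with 32.6 (28.3 to 37.4) at day 1 and 5.10 at day 7. The region at 668.5 kb had folds of 29.0, 7.79 and 4.54 at days 1, 7 and 28. The strongest region of day 1 alone, at -375.5 kb, had a fold of 25.5 (21.8 to 29.8).

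Some fibroblast markers moved with these day 1 regions and others did not. Lum, a matrix proteoglycan gene, had a gene-end peak at days 1, 7 and 28 (folds of 8.98, 9.13 and 4.26) and none in the untreated list. The strongest gene-end peaks of the type I collagen gene Col1a2 had folds of 11.4, 59.7, 38.1 and 20.7, and those of Dcn 3.79, 13.4, 16.1 and 4.26. In the untreated and day 1 lists those of Col1a1 had folds of 17.3 and 5.36, and those of Pdgfra 12.4 and 11.5. These folds are not adjusted for enrichment, whose median in shared regions, as fold minus 1, was 7.40 untreated and 16.6 at day 1. The part of fibroblasts in the day 1 regions was not tested.

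At day 28 the window held most of its untreated regions and a number of further ones. Of the 99 untreated peaks, 12 had no day 28 peak, or 12.1% (6.42 to 20.2), where 27.1% of all untreated peaks had none. Of the 123 day 28 peaks, 41 overlapped no untreated peak, or 33.3% (25.1 to 42.4), where 23.7% of all day 28 peaks did not. Neither interval reached the share over the genome, and the window lay on the same side of it under all 8 settings tried. Neighbouring peaks are not independent, so these intervals are too narrow. They hold for the reported setting only, and the size of the difference varied with the setting. With a −log10 q of at least 5 demanded in both lists, 18 of 90 untreated peaks had no day 28 peak. That was 20%, where the genome share became 25.7%. In the 500 kb window 29 of 96 day 28 peaks were new, or 30.2%, where the genome share was 23.7%. The further regions were weak. On the merged regions, 36 were in the day 28 list and not in the untreated list, and the highest day 28 fold among them was 10.5, at 85.2 kb. These 36 were 17.4% of the merged regions (12.5 to 23.3), where the genome share was 10.9%. Of them 18 were in the day 28 list alone, or 8.70% (5.24 to 13.4) where the genome share was 5.02%, with a median fold of 3.83 and a highest fold of 6.53, and all 18 lay on the Pvt1 side. With a −log10 q of at least 5 demanded of every peak the 18 became 9.

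The merged regions of the untreated list alone numbered 9, or 4.35% (2.01 to 8.09) where the genome share was 10.5%, and their highest fold was 6.10, at -71.7 kb. Of the 51 merged regions that the untreated and day 1 lists both held, 0 were missing at day 28, which allows a share of up to 5.88%. The genome share was 11.5%.

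Day 1 and day 7 differed from untreated as follows. At day 1, 92 of 144 peaks overlapped no untreated peak, or 63.9% (55.5 to 71.7), where the genome share was 52.4%. At the same time 41 of the 99 untreated peaks had no day 1 peak, or 41.4% (31.6 to 51.8), where the genome share was 37.4%. With a common enrichment floor in all lists, which allows for the lower enrichment of the untreated library, the 92 and 41 became 58 of 106 and 45 of 99, or 54.7% and 45.5%, where the genome shares became 42.1% and 45.0%. At day 7, 43 of 110 peaks were new, or 39.1% (29.9 to 48.9), where the genome share was 36.0%, and 31 of 99 were missing, or 31.3% (22.4 to 41.4), where it was 32.0%. The day 7 shares and the day 1 loss were within counting error of the genome. All 3 comparisons share the untreated list.

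**Figure D3:**
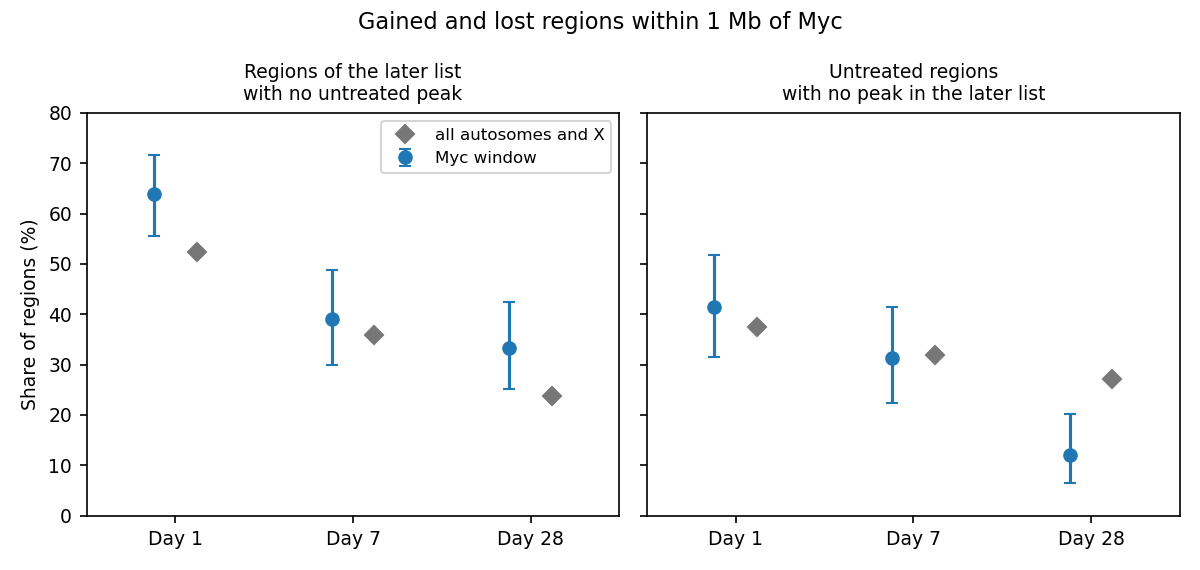
Share in percent of the peaks of each later list with no untreated peak (left) and of untreated peaks with no peak in the later list (right), within 1 Mb of Myc (circles, bars are exact binomial 95% intervals for counting error) and on all autosomes and X (diamonds). At day 28 the circle lies above the diamond on the left, 33.3% against 23.7%, and below it on the right, 12.1% against 27.1%.

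Between consecutive lists, 65 of 144 day 1 peaks were missing at day 7, or 45.1% (36.8 to 53.6), where the genome share was 36.5%, and 23 of 110 day 7 peaks were new, or 20.9% (13.7 to 29.7), where it was 20.9%. From day 7 to day 28, 31 of 110 peaks were missing, or 28.2%, where the share was 32.5%, and 48 of 123 were new, or 39.0% (30.4 to 48.2), where it was 24.1%. The intervals of the first and the last of these shares lay above their genome shares, and are likewise too narrow because neighbouring peaks are not independent. Acinar markers had a gene-end peak at 8 of 10 genes at day 7 and at 10 of 10 at day 28, with 23 and 21 such peaks. The strongest of Ptf1a had folds of 18.5 and 79.2 in these lists, and those of Cela1 25.8 and 26.7. The part of the acinar share of the cells in these differences was not tested.

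The sides of the gene are given separately here. The side of lower coordinates held 13 untreated, 36 day 1, 17 day 7 and 8 day 28 peaks, and the Pvt1 side 83, 108, 91 and 112. On the lower side 29 of the 36 day 1 peaks, or 80.6% (64.0 to 91.8), overlapped no untreated peak, against 63 of 108 on the Pvt1 side, or 58.3% (48.5 to 67.7), where the genome share was 52.4%. These intervals overlap. At day 28, 6 of the 13 untreated peaks of the lower side had no peak, or 46.2% (19.2 to 74.9), against 6 of 83 on the Pvt1 side, or 7.23% (2.70 to 15.1), where the genome share was 27.1%. The interval of the lower side, which rests on 13 peaks, contains that share. That of the Pvt1 side lies below it and does not overlap the interval of the lower side. Neighbouring peaks are not independent, so the intervals by side are also too narrow. Most of the untreated peaks with a day 28 peak were thus on the Pvt1 side, which also held most untreated peaks. The difference between the sides was not tested.

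On the lower side the strongest regions were at -376.8 kb, at chr15:61608048-61609121, with folds of 9.06, 47.6, 31.4 and 11.9, and at -795.6 kb, with folds of 5.60, 43.8, 20.4 and 5.39. The first was 17th, 12th, 12th and 27th of the 50 shared regions and the second 31st, 16th, 24th and 41st. The region at -531.1 kb had folds of 25.2 at day 1 and 9.67 at day 7 and no peak in the other lists. From -335.4 to -328.2 kb lay a group of 5 merged regions with 5 day 1 peaks, a highest fold of 16.5 and no peak in any other list.

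By distance, most members lay between 100 and 500 kb on the Pvt1 side. This stretch held 107 of the 207 merged regions and 57, 69, 58 and 72 peaks. Of the regions held by untreated and day 28 but not day 1, 19 of 27 lay here, as did 30 of the 50 shared by all lists. The stretch from 10 to 100 kb on the same side held 9, 15, 15 and 12 peaks, and that from 500 kb to 1 Mb held 13, 21, 16 and 24. Within 10 kb of the gene span there were 8, 5, 6 and 7 peaks. The region at 1.8 kb alone was called as 3 peaks in the untreated and day 28 lists and as 1 at days 1 and 7.

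**Figure D4:**
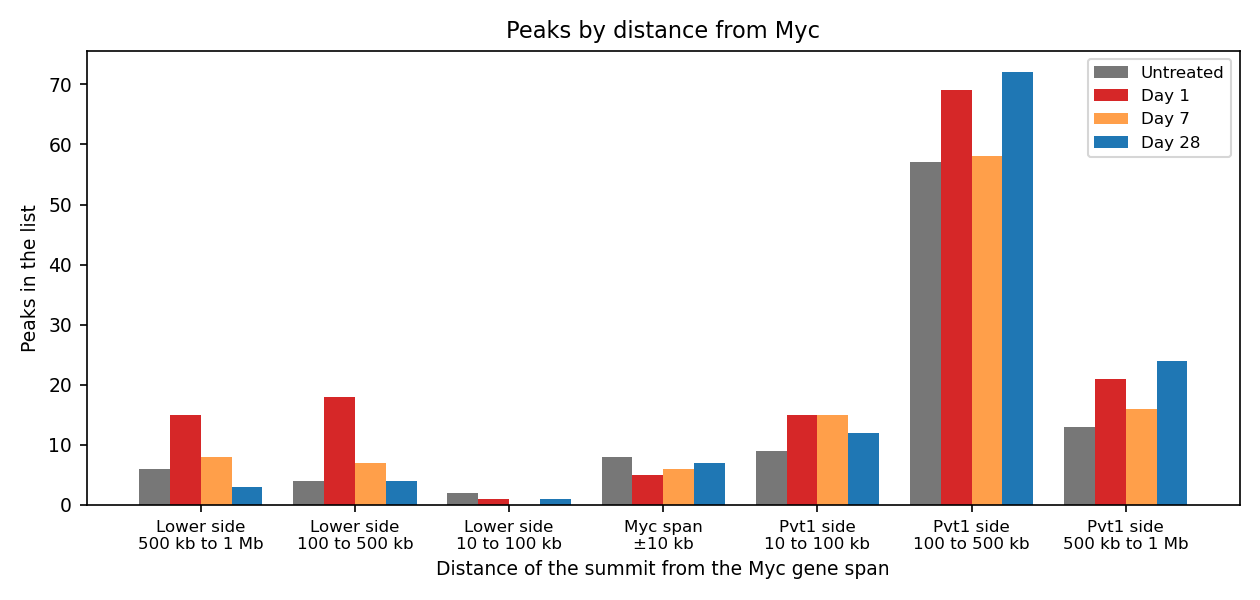
Number of peaks in each list (bars, from 0) by distance of the summit from the Myc gene span. On the lower side day 1 has the most peaks beyond 100 kb, 18 and 15, and between 100 and 500 kb on the Pvt1 side day 28 has the most, 72.

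Joining merged regions with gaps of up to 10 kb gave 12 clusters of at least 5 regions. The longest ran over 139 kb inside Pvt1, from 102.4 to 240.6 kb, and held 57 merged regions, with 35 untreated, 37 day 1, 35 day 7 and 39 day 28 peaks. Of its regions 19 were held by all lists, 13 by day 1 alone and 10 by untreated and day 28 but not day 1. The next by number of regions, from 265.7 to 313.8 kb, held 24 merged regions and 12, 12, 10 and 18 peaks, with a highest fold of 91.1 at day 28. The next by length ran over 51.6 kb, from 38.2 to 89.1 kb, and held 16 merged regions and 6, 13, 12 and 10 peaks. A smaller cluster of 5 regions, from 719.7 to 734.1 kb, held 5, 2, 2 and 4 peaks, with highest folds of 66.2, 7.25, 21.5 and 81.5.

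Of the 13 annotated gene spans that reach into the window, Myc was the only protein-coding one. Pvt1 held 72 merged regions, with 42, 50, 47 and 48 peaks. The noncoding genes Gm38563, D030024E09Rik and Gm29904 on the lower side held 2, 5, 4 and 1 peaks, 1, 2, 1 and 1 peaks, and 1 peak in each list. Gm41333 held 1 day 28 peak, Macroh2a3, a pseudogene inside the Pvt1 span, held 1 day 1 peak, and Gm30113 held none. The small RNA genes Gm24696 and Gm22521 and the pseudogenes Gm18154, Gm18788 and Tsg101-ps held no summit in any list. The peak lists do not show which gene a region acts on.

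Genes whose products work with MYC were examined through the regions linked to them, each summit going to the nearest protein-coding gene within 50 kb. Region counts follow the length of a gene and its surroundings and are not levels. The network list of 22 genes comprised the MYC family, MAX, the MXD and MNT repressors that compete for MAX, the MLX branch, cofactors, and enzymes that act on MYC stability. At day 1, 80 of its 173 regions were new, or 46.2% where the share of all linked regions was 49.9%, and 77 of 175 untreated ones were missing, or 44.0% where it was 37.1%. With the common enrichment floor these counts were 37 and 87, or 31.4% and 49.7%, where the shares of all linked regions became 39.1% and 44.7%. Without the floor, more regions gained than lost were seen at 10 genes and the reverse at 8, with a median difference of 0. Over all 17324 genes with a region these counts were 8409 and 5513, and the median was also 0.

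The counts of single network genes are given without the floor. Mxi1, which encodes a MAX-binding repressor, had 12 new and 12 missing regions at day 1. Fbxw7, the ubiquitin ligase subunit that marks MYC for destruction, had 11 and 15. Mycl, a MYC paralogue, had 7 new and 0 missing, and Mxd1, another repressor, 0 and 9. By day 28 the list had 33 new regions, 19.6% where the share of all linked regions was 23.0%, and 33 missing, 18.9% where it was 26.7%. Myc itself, with the 14, 11, 13 and 13 peaks within 50 kb, had 4 new and 5 missing at day 1, 3 and 4 at day 7 and 3 and 0 at day 28. At day 7 the list had 45 new and 60 missing regions, 28.5% and 34.3% where the shares were 33.9% and 31.8%.

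Factors known to act on Myc transcription formed a list of 14 genes, among them the Wnt effectors Ctnnb1 and Tcf7l2, Notch1 with its partner Rbpj, and Stat3. At day 1 they had 248 new of 462 regions (53.7%) and 127 missing of 376 (33.8%), where the shares of all linked regions were 49.9% and 37.1%. With the common floor they had 98 new (36.8%) and 164 missing (43.6%), near the shares of 39.1% and 44.7% that all linked regions then had. Without that floor, Nfkb1, an NF-kB subunit gene, had 68 of 88 day 1 regions new and 10 of 36 untreated ones missing. Nfatc1 had 61 of 108 and 14 of 67, and Notch1 11 of 33 and 21 of 45. At day 28 the list had 85 new (23.9%) and 98 missing (26.1%), where the shares were 23.0% and 26.7%. Classical MYC target genes, 14 in number, had 41 new of 87 (47.1%) and 24 missing of 78 (30.8%) at day 1, where the shares of all linked regions were 49.9% and 37.1%. With the common floor they had 22 (36.1%) and 29 (37.2%), where the shares were 39.1% and 44.7%. Without the floor, Eif4e, the cap-binding translation factor gene, had 13 of 17 day 1 regions new and 3 of 8 untreated ones missing. Odc1, which encodes the first enzyme of polyamine synthesis, had 10 of 20 and 4 of 15. At day 28 the targets had 20 new (25.3%) and 18 missing (23.1%), where the shares were 23.0% and 26.7%.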

How the data were processed

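ATAC-seq peak lists in narrowPeak layout were used for 4 samples, grouped by their titles. Per the submitters' processing notes the tools included MACS2 (2.1.0.20150731), Bowtie2 (2.2.6), deepTools, SAMtools and cutadapt, with builds GRCm38 and mm10. Sources used here do not state caller options, read filters, Tn5 shifting or pooling. The deposited fold column is the ratio of summit pileup to background. Deposited −log10 values of p and q rate that summit, and the authors' score is 10 times the −log10 q.

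Window counts, overlaps of at least 1 bp, merged regions and intervals were computed with Python 3.11.15, pandas 2.3.3 and scipy 1.17.1 and tested on simulated lists. Taking fold to be (pileup + 1) / (background + 1), a single background per list made 100% of pileups whole within 0.05 and matched 100% of p-values. These depths set a lowest callable fold of 2.47, 2.36, 2.95 and 2.84 in the untreated, day 1, day 7 and day 28 lists. Gene spans are from RefSeq (GRCm38.p6), without strand or exons. Each group has 1 library, so nothing was tested between groups. The members and gene lists were chosen with earlier results of these data known.

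Regions named are those within 10 kb of Myc, the 5 strongest of each list, the 3 strongest of each presence pattern and the strongest of each distance band, plus regions singled out after their values were seen (shared regions with large rank shifts and their neighbours). The shares by side of Myc and the count of untreated and day 1 regions missing at day 28 were also added after values were seen. One gene of the likeness list is not reported here. Network genes named are among those with the most gained and lost regions. Alternatives varied the window, overlap, q threshold, common enrichment floor, merging and link distance.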

Additional observations from a re-analysis of the deposited data

How the results depend on the processing

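Of 124 recomputed values, 103 stayed within 1.5 times the reported count and 21 did not. Narrowing the window to 100 kb around Myc left 19, 21, 21 and 20 peaks in the untreated, day 1, day 7 and day 28 lists, with 11, 7 and 6 gained and 7, 5 and 1 lost at days 1, 7 and 28, because fewer peaks were counted. A 500 kb window left 7 lost at day 28. The common enrichment floor, which removes weak day 1 peaks by construction, gave 58 gained at day 1, 33 merged regions of day 1 alone, and 37, 98 and 22 regions gained at day 1 by the network, regulator and target lists. Demanding a −log10 q of at least 5 where a region is present and no peak where absent gave 26 gained at day 28, and −log10 q of at least 5 throughout gave 9 merged regions of day 28 alone. Counting a region as shared only with a summit within 150 bp gave 26 lost at day 28, or 26.3% where the genome share became 39.2%. Links within 10 kb gave 11 regions gained at day 28 by the targets. The gained share lay above the genome share under 8 of 8 settings at days 1 and 28, although in the 100 kb window at day 1 both shares were 52.4%, and the lost share at day 28 below it under 8 of 8. At day 7 the gained share was above it under 6 of 8. No paired analysis was possible because each group has 1 library. Depth limits weak regions most: the lowest pileups were 14, 14, 10 and 9 reads.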

Other observations

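The windows around the paralogues Mycn and Mycl were counted in the same way. Within 1 Mb of Mycn, on chromosome 12, the lists held 95 untreated, 94 day 1, 80 day 7 and 57 day 28 peaks. Of the 95, 40 had no peak at day 28, or 42.1%, and of the 57, 5 were new, or 8.77%. Within 1 Mb of Mycl, on chromosome 4, the lists held 142, 127, 139 and 144 peaks, 28 of the 142 had no peak at day 28, or 19.7%, and 39 of the 144 were new, or 27.1%. Over the genome 27.1% of untreated peaks had no day 28 peak and 23.7% of day 28 peaks were new, and no difference between windows was tested. The strongest peaks over the gene spans had folds of 28.2, 28.7, 19.1 and 35.5 at Mycn and 25.0, 30.7, 39.0 and 30.1 at Mycl. These windows were chosen after the Myc values were seen.

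Among 12088 protein-coding genes with at least 40 regions over the 4 lists, those whose region counts within 50 kb were distributed over the lists most like those of Myc included Poli and Lrrc10b (Euclidean distance 0), Taf5l (0.00333) and Abcf1 (0.00398). Likeness was measured over 4 values per gene, each a count as a share of its list. The counts at Myc, 14, 11, 13 and 13 regions, are small, and how often such counts coincide was not computed.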
